A study of Mus musculus with 12 samples.

Results

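The genes described here are 9 that carry glucose into the cell and break it down to lactate: the glucose transporter gene Slc2a1, the hexokinase genes Hk1 and Hk2, the phosphofructokinase gene Pfkp, its regulator Pfkfb3, and Pgk1, Ldha, Pkm and Gapdh. They were taken by gene symbol from the table of read counts, where each has 1 row. They are 9 of 49585 genes in the table, and all 9 passed the filter on low counts that left 18556 genes for testing. The counts come from poly(A)-selected RNA of whole lungs of C57BL/6J mice that carried MO4 melanoma under the skin, in 12 libraries, 3 in each of 4 groups. The combination group was 22 months old and received 2 antibodies, anti-PD-1 and anti-IL-21 receptor, both injected into the peritoneum. The aged anti-PD-1 group, also 22 months old, received anti-PD-1 alone, and the aged control group of the same age received a rat antibody of matched isotype. The young anti-PD-1 group was 2 months old and received anti-PD-1. Injection days 3, 7 and 11 after inoculation are given for anti-PD-1 and the control antibody, and no day is given for the antibody against the IL-21 receptor. Every mouse carried the tumour and received an antibody, so no group is untreated or free of tumour, and the only young group received anti-PD-1. Whether the 3 libraries of a group stand for 3 separate mice is not stated, and p-values thus measure only the spread between libraries, which may be technical.

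Glycolysis turns glucose into pyruvate in the cytosol and yields energy without oxygen. Transporters of the SLC2A family let glucose in, hexokinases trap it by phosphorylation, and phosphofructokinase makes the committing step, which PFKFB enzymes speed by making an activating sugar phosphate. Lactate dehydrogenase turns the pyruvate into lactate. Activated neutrophils, macrophages and T cells raise this route, and many of its genes are targets of hypoxia-inducible factors.

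Hk2 and Slc2a1 were the members called between the aged anti-PD-1 lungs and both other aged groups. Hk2 was lower in aged anti-PD-1 lungs than in young anti-PD-1 lungs and than in aged control lungs, and higher in combination lungs than in aged anti-PD-1 lungs. Slc2a1 was lower in aged anti-PD-1 lungs than in aged control lungs and higher in combination lungs than in aged anti-PD-1 lungs. The second of these Slc2a1 calls was lost in several fits that left out 1 library. The Hk2 call against aged control was lost in the fit without aged control library 2. Pkm was lower in aged anti-PD-1 lungs than in aged control lungs, a call also lost in several fits that left out 1 library. Its aged anti-PD-1 levels also lay below the combination ones without overlap, short of a call (edgeR adjusted p = 0.0699). The other 6 genes passed the test in none of the 4 comparisons. A gene was called where the edgeR quasi-likelihood F test of the 4 group means gave a Benjamini-Hochberg adjusted p under 0.05 over the genes tested. Called were 1 of the 9 genes for aged against young anti-PD-1 (15.3% of all genes tested), 3 of 9 for aged anti-PD-1 against aged control (10.9%), 2 of 9 for the combination against aged anti-PD-1 (9.02%) and 0 of 9 for the combination against aged control (0%). The first 3 comparisons share the aged anti-PD-1 libraries, so their values are not independent of each other.

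Total counts ran from 16021877 to 22058620 per library. The 9 genes together held 0.123 to 0.129% of the counts in combination lungs, 0.120 to 0.124% in aged anti-PD-1 lungs, 0.129 to 0.145% in aged control lungs and 0.113 to 0.118% in young anti-PD-1 lungs. Markers of lung epithelium were abundant, with the 8 type 2 alveolar markers, Sftpc among them, summing to at least 19872 CPM in every aged anti-PD-1 library, the group with the lowest sums. The 8 melanoma markers summed to 14.6 to 22.3 CPM over the libraries, and Tyr and Tyrp1 were at 0 in all aged anti-PD-1 libraries. Mitochondrially encoded genes took 11.5 to 14.9% of counts in combination lungs, 7.88 to 11.9% in aged anti-PD-1 lungs, 7.32 to 10.4% in aged control lungs and 6.05 to 7.22% in young anti-PD-1 lungs, and their part in the results was not tested.

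The promoters of the 3 called genes, and of Ldha, are shown so that these letters can be read beside the values. Ldha was added because its window has the highest count of the hypoxia response core among the 9 genes when each strand is counted. Each is the RefSeq sequence of GRCm38.p6 from 250 bases before a transcription start, 5′ to 3′ on the strand of the gene. Capitals mark ACGTG or GCGTG, the letters of the core that hypoxia-inducible factors recognise, found on either strand, so that CACGT and CACGC in capitals are the same core read from the opposite strand.
Slc2a1, chr4:119108495-119108744, plus strand: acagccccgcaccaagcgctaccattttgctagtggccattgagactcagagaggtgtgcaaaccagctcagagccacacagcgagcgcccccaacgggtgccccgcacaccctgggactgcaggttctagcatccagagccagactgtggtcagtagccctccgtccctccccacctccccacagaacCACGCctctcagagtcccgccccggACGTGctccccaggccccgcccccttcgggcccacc
Hk2, chr6:82774455-82774704, minus strand: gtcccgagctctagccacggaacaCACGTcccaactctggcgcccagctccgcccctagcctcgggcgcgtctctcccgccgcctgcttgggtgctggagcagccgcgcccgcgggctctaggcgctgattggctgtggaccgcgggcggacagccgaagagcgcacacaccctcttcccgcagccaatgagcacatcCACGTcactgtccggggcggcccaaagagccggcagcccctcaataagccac
Pkm, chr9:59656326-59656575, plus strand: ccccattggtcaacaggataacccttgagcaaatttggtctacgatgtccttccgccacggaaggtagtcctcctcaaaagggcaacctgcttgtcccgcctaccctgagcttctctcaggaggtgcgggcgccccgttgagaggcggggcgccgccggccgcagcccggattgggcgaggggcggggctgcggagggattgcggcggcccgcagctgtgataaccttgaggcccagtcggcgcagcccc
Ldha, chr7:46845554-46845803, plus strand: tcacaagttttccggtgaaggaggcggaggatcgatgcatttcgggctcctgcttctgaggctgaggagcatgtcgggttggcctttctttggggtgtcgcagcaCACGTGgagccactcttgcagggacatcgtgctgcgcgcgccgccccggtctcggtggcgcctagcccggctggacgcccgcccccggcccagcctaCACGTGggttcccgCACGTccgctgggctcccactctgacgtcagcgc
The Slc2a1 window holds 2 matches, the Hk2 window 2, and the Pkm window none, although a second Pkm start, with its window at chr9:59656977-59657226, has 1. The Ldha window holds 5, since each of its 2 copies of CACGTG contains ACGTG, reads alike on both strands and is counted on each. With each copy counted once, Ldha would be level with Pfkp, whose window holds 3 matches and no CACGTG. It would also be level with an Hk1 window at chr10:62340422-62340671, which holds 3 matches and no CACGTG. Of 13 windows of the 9 genes, 11 held ACGTG or GCGTG, against 38.6% of 32851 windows of the same length over all genes in the RefSeq table. The E-box letters CACGTG were in 2 of the 13 windows, against 6.02% of all, and the GC box letters GGGCGG were in 8 of the 13, against 32.7% of all, both strands searched. Both cores, the E-box and the GC box contain CG, and the windows of the 9 genes held 49.6 to 69.6% G and C. The share over all windows was not matched for this content or for expression. The contrast therefore does not show that hypoxia cores are particular to these genes. Several windows belong to 1 gene, and a match of letters is a description, not a binding site.

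Levels can be set against each other only per length, as CPM (counts scaled to library size by TMM) divided by the exon length in kilobases. This length joins all annotated exons of a gene. It was 13.4 kb for Pfkp and 8.53 kb for Hk1, whose longest protein-coding transcripts have 4145 and 4278 bases. For Hk2 it was 5.97 kb, against 5513 bases. The order below therefore depends on the length used, and levels per transcript length were not computed. Averaged over the 12 libraries, Pkm, the pyruvate kinase, stood highest at 103 CPM per kb. It was followed by Ldha at 86.5 and Pgk1 at 58.6 CPM per kb. Slc2a1 came next at 15.5 CPM per kb. By this length Pfkfb3 at 7.93, Hk1 at 7.75, Hk2 at 6.40 and Pfkp at 6.24 CPM per kb lay close together. Gapdh was last at 4.64 CPM per kb, in a row that shares most of its sequence with pseudogenes. Between the libraries, Hk2 varied most, with its highest library 2.31-fold above its lowest, and Pgk1 and Ldha varied least, at 1.31-fold each. The coefficient of variation within groups was 16.9% for Hk2, 15.9% for Pfkfb3 and 11.1% for Slc2a1, against 5.42% for Pgk1 and 5.88% for Pkm. A test of any difference among the 4 groups called Slc2a1 (edgeR adjusted p = 0.00375), Hk1 (0.0241), Hk2 (0.00681) and Pkm (0.00823), that is 4 of the 9 genes, where 22.6% of all genes tested were called. The plot of levels by library shows the 9 genes in each group.

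**Figure D1:**
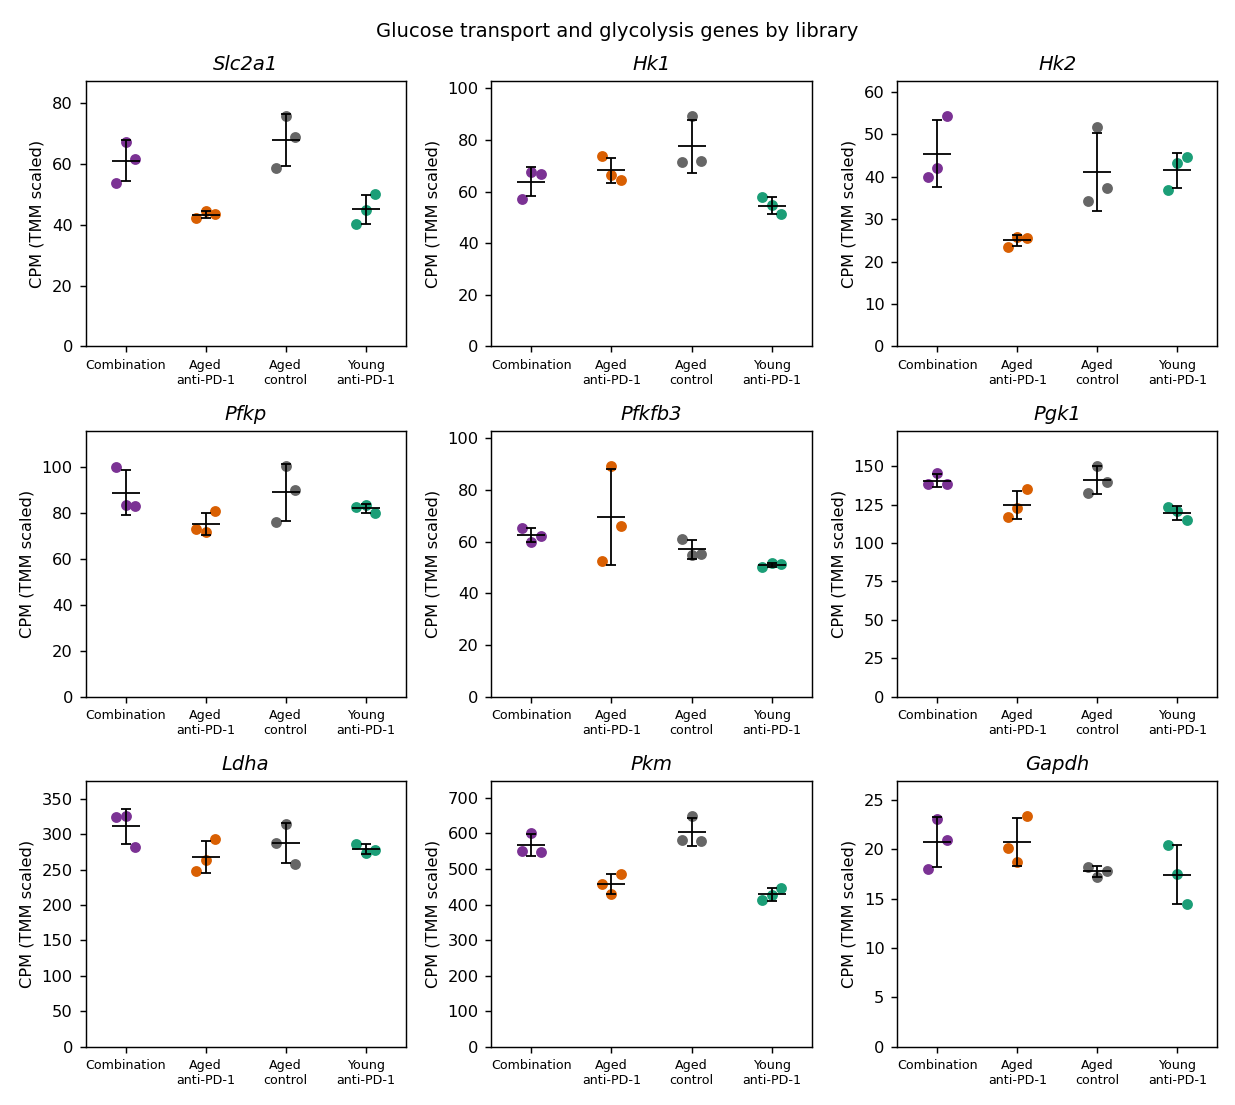
Level of each of the 9 genes in each library, in CPM scaled by TMM on axes that start at 0, for the combination, aged anti-PD-1, aged control and young anti-PD-1 groups. Points are libraries, long bars are means and error bars are SDs of 3 libraries. The 3 aged anti-PD-1 libraries of Hk2 lie between 23.5 and 25.8 CPM, below the 9 others.

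Slc2a1 encodes GLUT1, the widespread transporter for basal glucose uptake, and lies on chromosome 4 (119108711 to 119137983 in mm10, plus strand). It had 53.9, 67.3 and 61.7 CPM in combination lungs, 42.1, 44.5 and 43.4 CPM in aged anti-PD-1 lungs, 58.7, 75.8 and 68.8 CPM in aged control lungs, and 40.2, 44.9 and 49.9 CPM in young anti-PD-1 lungs. The aged anti-PD-1 libraries were all below both other aged groups and overlapped the young anti-PD-1 libraries. Against aged control, the level in aged anti-PD-1 lungs was 1.56-fold lower (log2 fold change -0.64 ± 0.12 SE, edgeR adjusted p = 0.00740). In combination lungs it was 1.41-fold higher than in aged anti-PD-1 lungs (0.49 ± 0.12, edgeR adjusted p = 0.0229). Leaving out aged anti-PD-1 library 1, 2 or 3 or combination library 2 or 3 ended this call, with edgeR adjusted p = 0.0767, 0.0602, 0.0579, 0.112 and 0.0512 in that order, and the log2 difference lay between 0.41 and 0.57 over all 12 such fits. Scaling by library totals alone ended it too (0.29, edgeR adjusted p = 0.0885); that scaling placed the median of all genes at -0.21, so Slc2a1 stood 0.50 above the median. Between aged and young anti-PD-1 the log2 difference was -0.05 ± 0.12 (95% interval -0.31 to 0.20, edgeR adjusted p = 0.800), and without young library 3 it was 0.05.

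Slc2a1 was not the only glucose transporter gene of that order of abundance. Slc2a3, which encodes the high-affinity transporter GLUT3 of neurons and leukocytes, averaged 93.6 ± 5.76 CPM in combination lungs, 77.5 ± 8.44 CPM in aged anti-PD-1 lungs, 113 ± 20.7 CPM in aged control lungs and 35.2 ± 3.88 CPM in young anti-PD-1 lungs (SD, n = 3 each). It was higher in aged than in young anti-PD-1 lungs (1.14 ± 0.14, edgeR adjusted p = 0.000328) and lower in aged anti-PD-1 than in aged control lungs (-0.55 ± 0.13, edgeR adjusted p = 0.0220). Of the summed CPM per kb of Slc2a1 and Slc2a3, Slc2a1 held 57.3 ± 1.46% in combination lungs, 53.7 ± 2.21% in aged anti-PD-1 lungs, 55.4 ± 1.85% in aged control lungs and 72.6 ± 1.42% in young anti-PD-1 lungs. The share was at most 58.9% in every aged library and at least 71.0% in every young one, without overlap. These shares were not tested.

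Hk1 and Hk2 encode hexokinases that bind mitochondria. Hk1 is the constitutive form in most tissues, and Hk2 is the inducible form of muscle, fat, activated leukocytes and tumours. Hk2, on chromosome 6 (82725025 to 82774454, minus strand), had 39.8, 42.0 and 54.3 CPM in combination lungs, 23.5, 25.8 and 25.6 CPM in aged anti-PD-1 lungs, 34.2, 51.6 and 37.4 CPM in aged control lungs, and 36.8, 43.2 and 44.5 CPM in young anti-PD-1 lungs. The aged anti-PD-1 libraries were the lowest 3 of the 12, and the other groups overlapped each other. Hk2 was 1.66-fold lower in aged than in young anti-PD-1 lungs (log2 fold change -0.73 ± 0.15 SE, edgeR adjusted p = 0.00752). It was 1.65-fold lower in aged anti-PD-1 than in aged control lungs (-0.72 ± 0.16, edgeR adjusted p = 0.0144), and without aged control library 2, the highest of its group, this call was lost (-0.52, edgeR adjusted p = 0.0578). In combination lungs it was 1.82-fold higher than in aged anti-PD-1 lungs (0.86 ± 0.16, edgeR adjusted p = 0.00817). The first and the third of these calls held in all 12 fits that left out 1 library, with edgeR adjusted p of at most 0.0441 and 0.0355.

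Hk1, on chromosome 10 (62268855 to 62379908, minus strand), followed another order. Its levels were 57.2, 67.5 and 66.9 CPM in combination lungs, 73.7, 66.6 and 64.4 CPM in aged anti-PD-1 lungs, 71.5, 89.4 and 71.9 CPM in aged control lungs, and 57.8, 54.8 and 51.2 CPM in young anti-PD-1 lungs. The young libraries lay below all aged anti-PD-1 and aged control libraries, while the aged groups overlapped, except that the combination libraries lay below the aged control ones. Hk1 missed the threshold for aged against young anti-PD-1 (0.32 ± 0.11, edgeR adjusted p = 0.0642), and was past it with DESeq2 (adjusted p = 0.0377), in a fit of only the 2 groups (edgeR adjusted p = 0.0235) and with scaling factors from genes other than immunoglobulin, haemoglobin and mitochondrial ones (edgeR adjusted p = 0.0460). Hk1 did not pass the test for aged anti-PD-1 against aged control (-0.19 ± 0.11, edgeR adjusted p = 0.283), nor for the combination against aged anti-PD-1 (-0.10 ± 0.11, edgeR adjusted p = 0.623).

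Shares within the hexokinase family were set side by side. Hk2 made up 33.9 ± 4.02% of the summed CPM per kb of 4 hexokinase genes (Hk1, Hk2, Hk3 and Hkdc1) in combination lungs, 22.4 ± 2.28% in aged anti-PD-1 lungs, 29.9 ± 0.855% in aged control lungs and 38.1 ± 2.70% in young anti-PD-1 lungs (SD, n = 3 each). The aged anti-PD-1 shares, 21.1 to 25.03%, lay below all others, the nearest of which was 29.4% in an aged control library. Hk1 held 33.5 ± 1.74% in combination lungs, 42.9 ± 5.06% in aged anti-PD-1 lungs, 39.99 ± 2.84% in aged control lungs and 35.2 ± 3.44% in young anti-PD-1 lungs. Hk3, the form found mainly in myeloid cells, held 28.3 ± 3.88% in combination lungs, 30.6 ± 6.85% in aged anti-PD-1 lungs, 25.4 ± 2.00% in aged control lungs and 16.7 ± 0.983% in young anti-PD-1 lungs. Every young library was at most 17.7% and every aged one at least 23.8%. The shares sum to the whole, so a fall of 1 gene raises the others, and they were not tested. They rest on an exon length of 8.53 kb for Hk1, whose longest protein-coding transcript has 4278 bases. They therefore set groups side by side and do not rank the 4 genes.

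**Figure D2:**
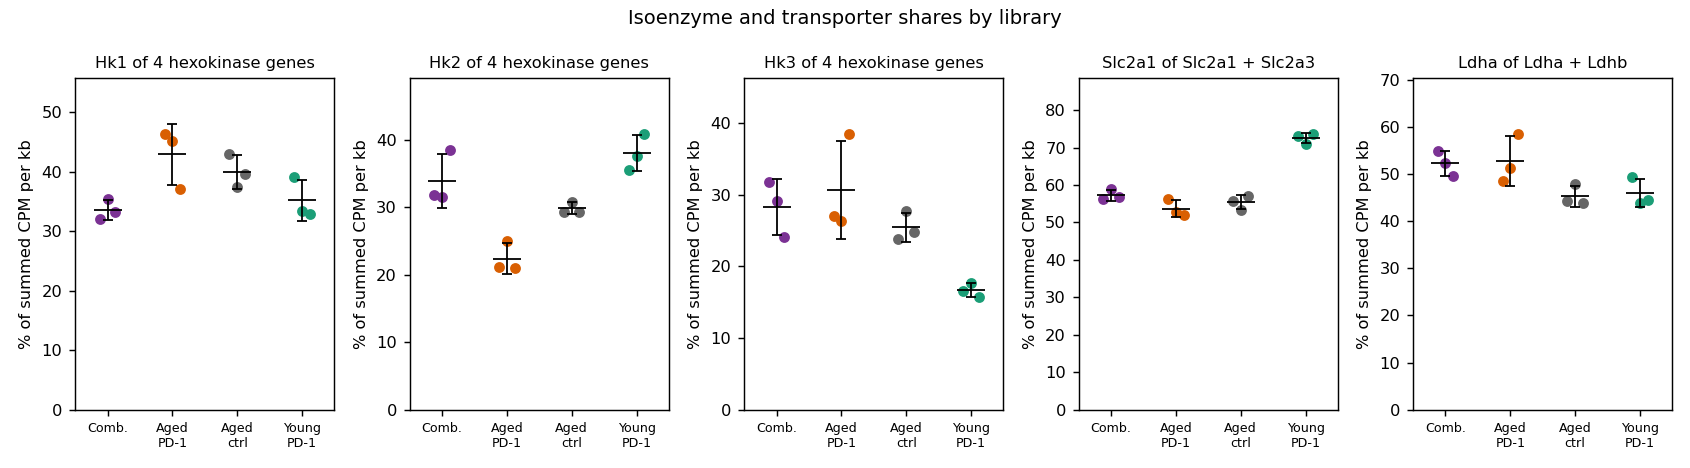
Share of Hk1, Hk2 and Hk3 in the summed level of 4 hexokinase genes, of Slc2a1 in Slc2a1 plus Slc2a3, and of Ldha in Ldha plus Ldhb, as a percent of summed CPM per kb, by library. Points are libraries, long bars means and error bars SDs of 3 libraries. The Hk2 share of the 3 aged anti-PD-1 libraries lies between 21.1 and 25.03%, and the Slc2a1 share of the 3 young libraries between 71.0 and 73.7%.

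Pfkp encodes the platelet type of phosphofructokinase, and lies on chromosome 13 (6579768 to 6648777, minus strand). It had 99.8, 83.2 and 82.9 CPM in combination lungs, 73.0, 71.4 and 80.6 CPM in aged anti-PD-1 lungs, 75.8, 100.3 and 89.99 CPM in aged control lungs, and 82.5, 83.4 and 79.7 CPM in young anti-PD-1 lungs. The combination libraries lay above the aged anti-PD-1 ones, and the aged anti-PD-1 libraries overlapped the aged control and young ones. None of these differences passed the test, and the log2 difference of the combination from aged anti-PD-1 was 0.24 ± 0.11 (edgeR adjusted p = 0.190). Aged anti-PD-1 differed from aged control by -0.24 ± 0.11 (edgeR adjusted p = 0.172) and from young anti-PD-1 by -0.13 ± 0.11 (edgeR adjusted p = 0.495). Among the 3 phosphofructokinase genes Pfkp held 31.8% of the summed CPM per kb in combination lungs, 28.9% in aged anti-PD-1 lungs, 32.4% in aged control lungs and 31.5% in young anti-PD-1 lungs. These shares rest on an exon length of 13.4 kb for Pfkp, whose longest protein-coding transcript has 4145 bases. They set groups side by side and do not show which of the 3 genes is the main form.

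Pfkfb3, on chromosome 2 (11471433 to 11554077, minus strand), encodes the inducible enzyme that makes fructose 2,6-bisphosphate, the activator of phosphofructokinase. It had 65.3, 59.999 and 62.3 CPM in combination lungs, 52.6, 89.3 and 66.2 CPM in aged anti-PD-1 lungs, 61.1, 54.7 and 55.0 CPM in aged control lungs, and 49.98, 51.8 and 51.1 CPM in young anti-PD-1 lungs. Aged anti-PD-1 library 2 stood well above the other 11, and the 3 aged anti-PD-1 libraries, spread as they were, all lay above the young ones. The difference of aged from young anti-PD-1 missed the threshold (0.44 ± 0.14, edgeR adjusted p = 0.0523) and was past it with DESeq2 (adjusted p = 0.0368). It was also past it without a filter (edgeR adjusted p = 0.0298). The same held with scaling factors from genes other than immunoglobulin, haemoglobin and mitochondrial ones (edgeR adjusted p = 0.0428). Without aged anti-PD-1 library 2 it was 0.22 (edgeR adjusted p = 0.241), and without library 1, the lowest, 0.61 (edgeR adjusted p = 0.00750). Against aged control the log2 difference was 0.28 ± 0.14 (edgeR adjusted p = 0.209), with 0.45 and a call without library 1 (edgeR adjusted p = 0.0496). The combination differed from aged anti-PD-1 by -0.15 ± 0.14 (edgeR adjusted p = 0.551), and by 0.07 without aged anti-PD-1 library 2.

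Pgk1 encodes phosphoglycerate kinase, the first step that yields ATP, and lies on the X chromosome (106187100 to 106203699, plus strand). It had 138.2, 145.6 and 138.3 CPM in combination lungs, 117.1, 122.9 and 135.0 CPM in aged anti-PD-1 lungs, 132.3, 150.4 and 140.0 CPM in aged control lungs, and 123.6, 121.0 and 114.8 CPM in young anti-PD-1 lungs. The combination libraries lay just above the aged anti-PD-1 ones, and the aged anti-PD-1 libraries overlapped the aged control and young ones. The combination differed from aged anti-PD-1 by 0.17 ± 0.09 (edgeR adjusted p = 0.246), and by -0.03 with scaling by library totals alone. Aged anti-PD-1 differed from aged control by -0.17 ± 0.09 (edgeR adjusted p = 0.220) and from young anti-PD-1 by 0.06 ± 0.09 (edgeR adjusted p = 0.702).

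Pkm encodes the muscle-type pyruvate kinase, the last ATP-yielding step, and lies on chromosome 9 (59656368 to 59679375, plus strand). Its row sums the splice forms PKM1 and PKM2, which cannot be told apart in it. It had 550.1, 602.1 and 548.3 CPM in combination lungs, 457.3, 429.7 and 486.7 CPM in aged anti-PD-1 lungs, 581.3, 649.3 and 579.3 CPM in aged control lungs, and 411.8, 427.6 and 447.8 CPM in young anti-PD-1 lungs. The libraries fell into a higher range, combination and aged control, and a lower one, aged and young anti-PD-1, with no overlap between these ranges. Against aged control, the level in aged anti-PD-1 lungs was 1.32-fold lower (log2 fold change -0.40 ± 0.10 SE, edgeR adjusted p = 0.0258). Leaving out aged anti-PD-1 library 1, 2 or 3 or aged control library 2 ended this call, with edgeR adjusted p = 0.0637, 0.0924, 0.0507 and 0.0980, as did fitting only the 2 groups (0.0814), while the log2 difference stayed between -0.44 and -0.34 in those fits without 1 library. The combination differed from aged anti-PD-1 by 0.31 ± 0.10 (edgeR adjusted p = 0.0699), which DESeq2 called (adjusted p = 0.00594). Aged and young anti-PD-1 differed by 0.09 ± 0.10 (95% interval -0.12 to 0.31, edgeR adjusted p = 0.579).

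Ldha, on chromosome 7 (46841475 to 46855627, plus strand), encodes the lactate dehydrogenase subunit that favours lactate formation. It had 324.6, 325.8 and 282.4 CPM in combination lungs, 248.5, 262.9 and 293.1 CPM in aged anti-PD-1 lungs, 287.6, 314.9 and 258.5 CPM in aged control lungs, and 286.0, 273.0 and 278.0 CPM in young anti-PD-1 lungs. All groups overlapped the aged anti-PD-1 libraries. The log2 difference was 0.21 ± 0.11 for the combination against aged anti-PD-1 (edgeR adjusted p = 0.222). It was -0.06 ± 0.11 for aged against young anti-PD-1 (edgeR adjusted p = 0.769), and -0.10 ± 0.11 for aged anti-PD-1 against aged control (edgeR adjusted p = 0.582), which library totals alone turned to 0.01. Ldhb, the subunit that favours pyruvate, was lower in aged anti-PD-1 lungs than in aged control lungs (-0.52 ± 0.11, edgeR adjusted p = 0.0122) and than in young anti-PD-1 lungs (-0.45 ± 0.11, edgeR adjusted p = 0.0141). Ldha made up 52.3 ± 2.68% of the summed CPM per kb of both in combination lungs, 52.7 ± 5.24% in aged anti-PD-1 lungs, 45.3 ± 2.20% in aged control lungs and 45.9 ± 2.93% in young anti-PD-1 lungs. These shares too depend on the exon length, 3.31 kb for Ldha, whose longest protein-coding transcript has 1815 bases.

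Gapdh encodes glyceraldehyde-3-phosphate dehydrogenase, and is often used as a reference gene. Its row, on chromosome 6 (125161715 to 125166467, minus strand), had 18.0, 23.1 and 20.97 CPM in combination lungs, 20.1, 18.7 and 23.4 CPM in aged anti-PD-1 lungs, 18.2, 17.2 and 17.8 CPM in aged control lungs, and 20.4, 17.5 and 14.5 CPM in young anti-PD-1 lungs. The aged anti-PD-1 libraries lay above the aged control ones and overlapped the other groups, and no difference passed the test. This row held 295 to 479 reads per library. Of the 50-base windows of its transcript, 82.5% also occur in another gene, and 167 pseudogene rows with similar transcripts held 1651 to 2221 reads per library, 81.7 to 87.5% of the sum. With these rows added, which was chosen after seeing the data, the log2 difference of aged anti-PD-1 from aged control was -0.14 (edgeR adjusted p = 0.408), against 0.22 ± 0.14 for the row alone (edgeR adjusted p = 0.316). For the combination against aged anti-PD-1 it was 0.23 (edgeR adjusted p = 0.179), against -0.0032 for the row alone (edgeR adjusted p = 0.992), and for aged against young anti-PD-1 it was 0.12, against 0.25 ± 0.14 (edgeR adjusted p = 0.259). The value of the Gapdh row is therefore uncertain. Of the other genes, 68.0% of windows were shared for Pgk1, 29.8% for Pkm and 16.5% for Ldha. Their pseudogene rows held at most 1.09% of the reads, and Pgk1-rs7, a protein-coding gene similar to Pgk1, held 74 over the 12 libraries. How reads that match several places were counted is not given. The effect of the shared sequence on Pgk1, Pkm and Ldha is therefore not known. No windows were shared for Slc2a1, Hk1, Hk2, Pfkp and Pfkfb3.

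**Figure D3:**
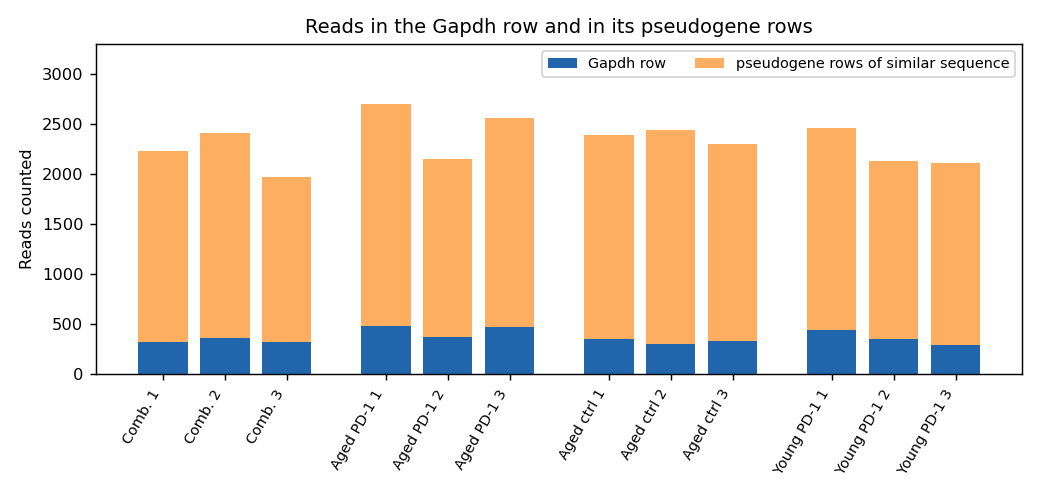
Reads counted in the Gapdh row and in 167 pseudogene rows of similar sequence, stacked, in each of the 12 libraries, on an axis that starts at 0. The Gapdh row holds 295 to 479 reads and the pseudogene rows 1651 to 2221.

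Genes that overlap a member in the annotation could share reads with it, since the strand setting of the counting is not given in the sources used here. The antisense gene Gm12868 at Slc2a1 held 53 to 125 reads per library and Gm17034 at Hk2 at most 3, set against at least 870 reads for Slc2a1 and 513 for Hk2. At Pkm, a gene on the same strand, RP23-320D23.6, held 75 to 278 reads, against at least 8315 for Pkm. Pitrm1, which runs opposite to Pfkp over 372 bases, held 320 to 547 reads, against at least 1257 for Pfkp. Iffo1, opposite to Gapdh over 68 bases, held 229 to 618.

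The first comparison sets aged against young mice, both given anti-PD-1. Hk2 was the 1 member called, and it was lower, where 7.16% of all genes were called lower; none was called higher, against 8.09%. Ranges did not overlap for 3 of the 9 genes, Hk2, which was lower, and Hk1 and Pfkfb3, which were higher, against 39.6% of all genes tested. The other enzymes of glycolysis, 17 of 19 listed genes tested, had 1 gene higher and 1 lower and a median log2 difference of 0.08, against -0.0069 over all genes tested. The gene called higher was Hk3 (0.93 ± 0.21, edgeR adjusted p = 0.0127), and the gene called lower was Hkdc1 (-1.26 ± 0.24, edgeR adjusted p = 0.00472), a hexokinase domain protein of epithelia. Aldoa, the aldolase with the highest level on the list, did not pass (0.16 ± 0.12, edgeR adjusted p = 0.393). Of 11 regulators and enzymes of the gluconeogenic bypass, 2 were higher and 1 was lower. Higher were Txnip, an inhibitor of glucose uptake that is induced by glucose (0.64 ± 0.11, edgeR adjusted p = 0.00275), and Pck1, the gluconeogenic phosphoenolpyruvate carboxykinase, at 3.496 ± 2.40 CPM in aged anti-PD-1 lungs and 0.798 ± 0.371 CPM in young anti-PD-1 lungs, with overlapping ranges (2.13 ± 0.62, edgeR adjusted p = 0.0353). Lower was Pcx, pyruvate carboxylase (-0.61 ± 0.15, edgeR adjusted p = 0.0143). Of 10 other glucose transporter genes tested, Slc2a3 and Slc2a9 were higher and the fructose transporter gene Slc2a5 was lower (-1.60 ± 0.44, edgeR adjusted p = 0.0258).

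Among 19 tested genes for the fate of pyruvate and lactate, 2 were higher and 5 lower in aged than in young anti-PD-1 lungs. Slc16a3 encodes the lactate exporter MCT4 and averaged 73.9 ± 19.0 CPM in aged anti-PD-1 lungs and 47.3 ± 0.286 CPM in young anti-PD-1 lungs (0.64 ± 0.19, edgeR adjusted p = 0.0354). Pdk4, a kinase that shuts the entry of pyruvate into the citric acid cycle, was also higher (0.77 ± 0.18, edgeR adjusted p = 0.0141). The lower genes were Ldhb, the lactate transporter gene Slc16a1 (-0.71 ± 0.15, edgeR adjusted p = 0.00787), its partner Bsg, and the mitochondrial pyruvate carrier genes Mpc1 and Mpc2 (Mpc2 -0.40 ± 0.09, edgeR adjusted p = 0.0117). Of 18 hypoxia response genes, 3 were higher and 3 lower, with a median of -0.05. The higher ones were Ndrg1 (0.61 ± 0.10, edgeR adjusted p = 0.00273), Ddit4 (0.95 ± 0.22, edgeR adjusted p = 0.0117) and Epas1, which encodes the hypoxia-inducible factor HIF-2α of endothelium (0.54 ± 0.14, edgeR adjusted p = 0.0190). The lower ones were Vegfa, P4ha1 and Egln1. Of the genes in these lists, Slc16a3, Bsg, Mpc1, Vegfa and Egln1 were named after their values were seen, to complete the counts. Beside these values, 7 of 8 type 2 alveolar and 7 of 8 type 1 alveolar markers were lower in aged than in young anti-PD-1 lungs, and all 10 platelet markers, 5 of 10 T cell markers and 6 of 8 B cell markers were higher. Also higher were 1 of 10 neutrophil (Cxcr2), 1 of 10 cardiac muscle (Nppa) and 1 of 8 blood endothelial markers (Ptprb), and 2 of 5 tested skeletal muscle markers, Tnnt3 and Tnni2, were lower. None of the 10 platelet markers was at 0 in any group. The part of the cell mixture in the members' values was not tested, and in RNA of whole lungs fewer cells of a type and less RNA per cell cannot be told apart.

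The second comparison sets aged anti-PD-1 against aged control, mice of 1 age that differed in the antibody. Slc2a1, Hk2 and Pkm were called lower, 3 of the 9 genes, where 5.58% of all genes were called lower. None was called higher, against 5.34% of all genes. Ranges did not overlap for 4 of the 9 genes, against 32.5% of all genes tested. Slc2a1, Hk2 and Pkm were lower without overlap, and Gapdh, whose row is uncertain, was higher without overlap. The median over the 9 genes was -0.19, against -0.02 over all genes tested, and 7 of the 9 had a negative log2 difference, a count that falls to 6 with library totals alone. None of the 17 other glycolysis enzymes was called, and 14 of them had a negative log2 difference, with a median of -0.20. Eno1, an enolase, was at 185 ± 20.3 CPM in aged anti-PD-1 lungs and 234 ± 26.7 CPM in aged control lungs (-0.33 ± 0.11, edgeR adjusted p = 0.0655), and Tpi1, the triose phosphate isomerase, differed by -0.25 ± 0.09 (edgeR adjusted p = 0.0817). Of the 10 other transporter genes, 3 were lower: Slc2a3, Slc2a5 and Slc2a6, a transporter gene of leukocytes (-0.87 ± 0.18, edgeR adjusted p = 0.0133). For pyruvate and lactate, 4 genes were lower and 1 was higher. Slc16a3 averaged 73.9 ± 19.0 CPM in aged anti-PD-1 lungs and 132 ± 31.8 CPM in aged control lungs (-0.84 ± 0.19, edgeR adjusted p = 0.0167), Ldhb, Slc16a1 and Mpc2, the last named after its values were seen, were also lower, and Pdp2, a phosphatase that activates pyruvate dehydrogenase, was higher (0.69 ± 0.19, edgeR adjusted p = 0.0318). Of the 18 hypoxia response genes, 2 were lower and 1 was higher. Egln3, a prolyl hydroxylase gene that hypoxia-inducible factors induce, was at 3.85 ± 0.338 CPM in aged anti-PD-1 lungs and 7.44 ± 2.00 CPM in aged control lungs (-0.95 ± 0.20, edgeR adjusted p = 0.0120). Ndrg1 was lower too (-0.50 ± 0.10, edgeR adjusted p = 0.0122), and Epas1 was higher (0.64 ± 0.14, edgeR adjusted p = 0.0149). No regulator or gluconeogenic gene was called.

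Markers of other cells moved in the same comparison. The 10 neutrophil markers summed to 810 to 1059 CPM in aged anti-PD-1 lungs and 1826 to 3304 CPM in aged control lungs, without overlap and with no marker at 0. Lower were 4 of 10 of them, S100a8, S100a9, Retnlg and Csf3r, none was higher, and the median log2 difference was -0.99. The 8 blood endothelial markers summed to 2481 to 2927 CPM in aged anti-PD-1 lungs and 1335 to 2304 CPM in aged control lungs, with 6 of 8 higher and a median of 0.72. The skeletal muscle markers summed to 27.8 to 29.6 CPM in aged anti-PD-1 lungs and 42.4 to 54.5 CPM in aged control lungs, with Tnnt3 lower among the 5 tested and Myh4 at 0 in every library. The 10 platelet markers summed to 1063 to 1150 CPM in aged anti-PD-1 lungs and 1536 to 2008 CPM in aged control lungs, without overlap, with 3 of 10 lower, none higher and a median of -0.71. The 8 B cell markers summed to 444 to 493 CPM in aged anti-PD-1 lungs and 228 to 427 CPM in aged control lungs, without overlap, with 3 of 8 higher, none lower and a median of 0.39. No platelet or B cell marker was at 0. Of the other lists, Top2a was higher among 10 proliferation markers, Mlana was lower among 3 tested melanoma markers, and no erythroid, cardiac muscle, T cell, alveolar macrophage or alveolar epithelial marker was called. The clock gene Per3, chosen after its values were seen, averaged 9.38 ± 1.63 CPM in combination lungs, 34.1 ± 18.4 CPM in aged anti-PD-1 lungs, 10.4 ± 2.66 CPM in aged control lungs and 12.3 ± 2.14 CPM in young anti-PD-1 lungs. The part of each of these in the values of Slc2a1, Hk2 and Pkm was not tested.

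**Figure D4:**
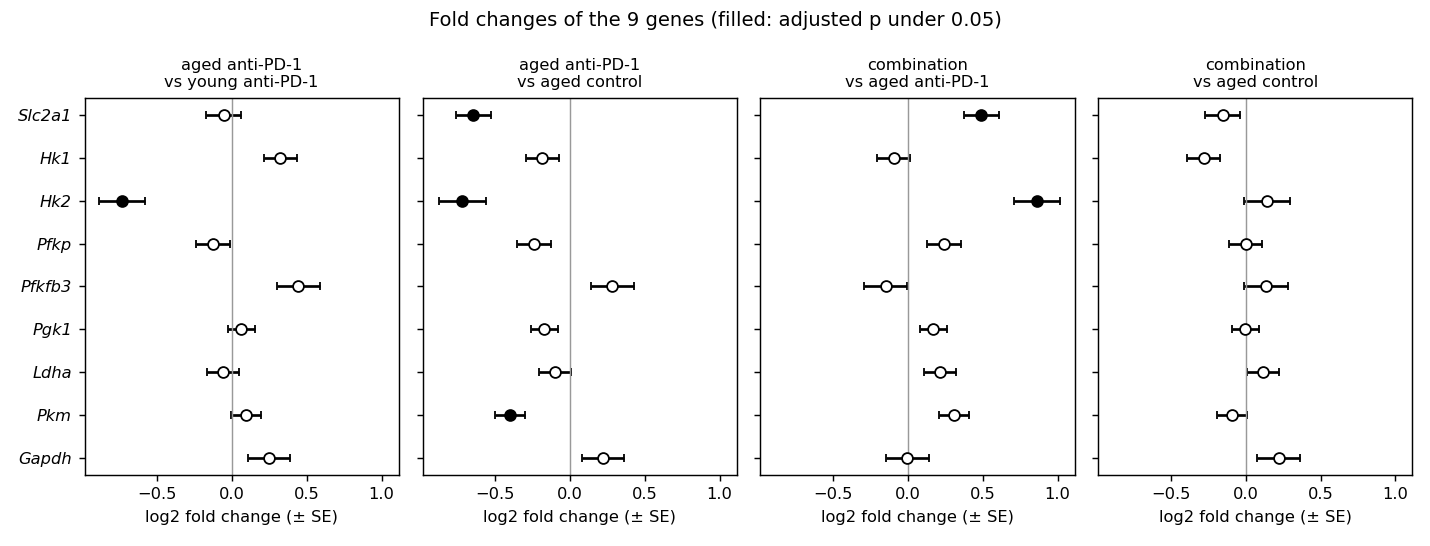
Log2 fold change of the 9 genes in the 4 comparisons, with the first-named group over the second, and bars of 1 SE. Filled points passed the edgeR test at an adjusted p under 0.05, among them Hk2 at -0.73, -0.72 and 0.86 in the first 3 comparisons, and no point is filled for the combination against aged control.

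The third comparison asks what the antibody against the IL-21 receptor adds to anti-PD-1 in aged mice. Slc2a1 and Hk2 were called higher in combination than in aged anti-PD-1 lungs, 2 of the 9 genes, where 4.67% of all genes were called higher. None was called lower, against 4.35%. The median over the 9 genes was 0.21, against -0.0086 over all genes tested. Ranges did not overlap for 5 of the 9 genes, Slc2a1, Hk2, Pfkp, Pgk1 and Pkm, against 32.2% of all genes tested. None of the other 17 glycolysis enzymes was called, and 15 had a positive log2 difference, with a median of 0.24. Tpi1 was at 171 ± 7.502 CPM in combination lungs and 141 ± 9.996 CPM in aged anti-PD-1 lungs (0.28 ± 0.09, edgeR adjusted p = 0.0625). Gpi1, the isomerase after hexokinase, differed by 0.29 ± 0.11 (edgeR adjusted p = 0.0972). Slc2a6 was the 1 transporter gene called among 10 (0.76 ± 0.18, edgeR adjusted p = 0.0236), and Slc16a3 the 1 gene called among 19 for pyruvate and lactate, at 120 ± 14.5 CPM in combination lungs and 73.9 ± 19.0 CPM in aged anti-PD-1 lungs (0.70 ± 0.19, edgeR adjusted p = 0.0342). Egln3 was the 1 hypoxia response gene called among 18 (0.90 ± 0.20, edgeR adjusted p = 0.0163), and Hif1a missed the threshold (0.49 ± 0.15, edgeR adjusted p = 0.0564). Pck1, the gluconeogenic enzyme, was lower at 0.630 ± 0.232 CPM in combination lungs and 3.496 ± 2.40 CPM in aged anti-PD-1 lungs (-2.48 ± 0.66, edgeR adjusted p = 0.0349), a level under 1 CPM in the combination and widely spread in aged anti-PD-1 lungs.

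Neutrophil markers summed to 1587 to 2418 CPM in combination lungs and 810 to 1059 CPM in aged anti-PD-1 lungs, with 4 of 10 higher, none lower and a median of 0.75. Blood endothelial markers summed to 1517 to 2112 CPM in combination lungs and 2481 to 2927 CPM in aged anti-PD-1 lungs, with 5 of 8 lower and a median of -0.74. Erythroid markers summed to 19035 to 46863 CPM in combination lungs and 9968 to 13137 CPM in aged anti-PD-1 lungs, with 5 of 9 higher and a median of 1.28, and none of them was at 0. Of the other lists, Tnnt3 was higher among 5 tested skeletal muscle markers, Fabp1 among 10 alveolar macrophage markers and Junb among 10 immediate early and heat shock genes. No platelet, B cell or T cell marker was called. The 8 skeletal muscle markers, like Hk2, were lowest in aged anti-PD-1 lungs, with sums of 27.8 to 29.6 CPM. Their sums were 34.5 to 41.3 CPM in combination lungs, 42.4 to 54.5 CPM in aged control lungs and 36.4 to 49.3 CPM in young anti-PD-1 lungs. The part of all these markers in the members' values was not tested. The plot of Hk2 and Slc2a1 beside the neutrophil and endothelial sums shows all 4 by library.

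**Figure D5:**
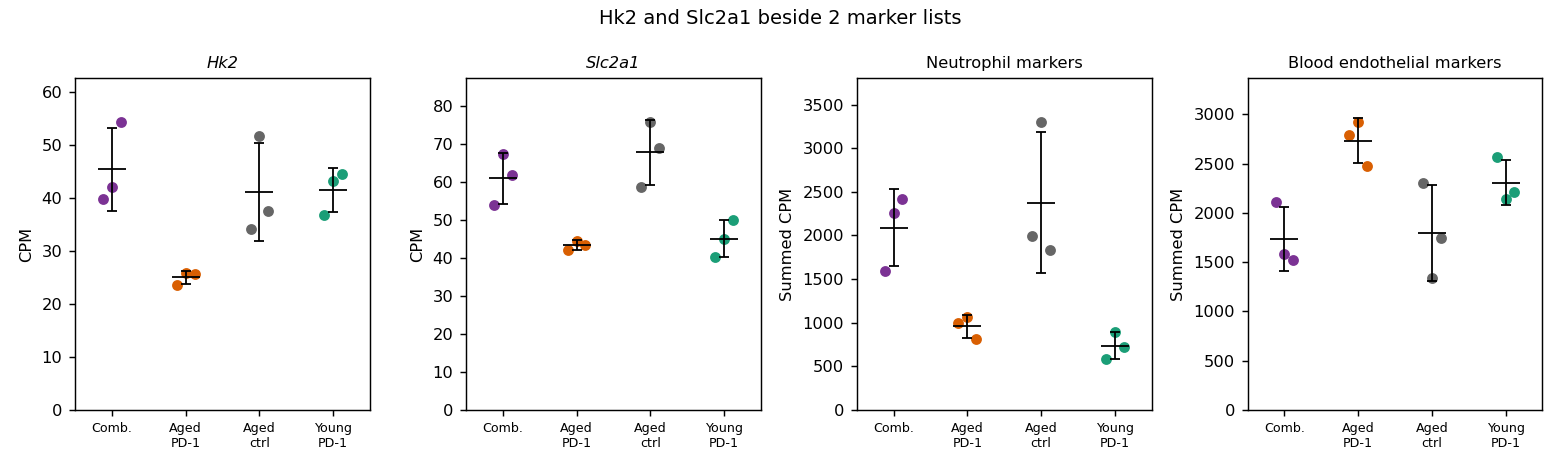
Hk2 and Slc2a1 in CPM, and the summed CPM of 10 neutrophil and 8 blood endothelial markers, by library, on axes that start at 0. Points are libraries, long bars means and error bars SDs of 3 libraries. In the aged anti-PD-1 libraries Hk2, Slc2a1 and the neutrophil sum (810 to 1059 CPM) lie below, and the endothelial sum (2481 to 2927 CPM) above, those of the combination and aged control groups. In the young libraries the neutrophil sum is low too (582 to 890 CPM), while Hk2 is at 36.8 to 44.5 CPM. The young endothelial sum is 2136 to 2564 CPM, and young Slc2a1 is at 40.2 to 49.9 CPM.

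The last comparison sets the combination against aged control, both aged groups other than anti-PD-1 alone. None of the 9 genes was called by edgeR, nor was any of the 18556 genes tested; 1228 (6.62%) had an unadjusted p under 0.05, DESeq2 called 76 genes and limma-voom none, and no tool called a member. For Hk2 the log2 difference was 0.14 ± 0.15 (95% interval -0.18 to 0.47, edgeR adjusted p = 0.938). For Slc2a1 it was -0.15 (95% interval -0.40 to 0.10, edgeR adjusted p = 0.889), and for Pkm -0.09 (95% interval -0.31 to 0.13, edgeR adjusted p = 0.942). Hk1 had the largest difference in size among the 9 genes, -0.28 ± 0.11 (95% interval -0.52 to -0.04, edgeR adjusted p = 0.683), and was the 1 member whose ranges did not overlap, against 9.71% of all genes. These intervals are the sizes that 3 libraries a group leave possible, and a p above the threshold does not show that the levels were alike. None of the 6 pathway lists had a called gene, and their medians lay between -0.20 and -0.01.

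Over the 12 libraries the members did not move as 1 group, which is given here as a description over libraries that share their groups. Slc2a1 and Pkm had the highest correlation of log2 CPM of any pair of them (Pearson r = 0.93, Spearman rho = 0.84, n = 12), followed by Pgk1 and Pkm (0.89 and 0.80). Slc2a1 and Hk2 stood at 0.63 and 0.63, and Hk1 and Hk2 at -0.06 and -0.16. Among 16624 tested genes whose mean log2 CPM was 0 or more, those most like Slc2a1 were Odc1 (r = 0.96), the ornithine decarboxylase of polyamine synthesis, Slc9a3r1 (0.96) and Gm17586 (0.96). Most like Hk2 were E230016M11Rik (0.96), the transcriptional repressor gene Bhlhe40 (0.95) and the thioredoxin reductase gene Txnrd1 (0.94). Most like Pkm were Ninj1 (0.98), a gene for membrane rupture in cell death, Rhog (0.98), a small GTPase gene, and the spermine oxidase gene Smox (0.97). Hk1 was most like Mast2 (0.94), Pgk1 most like Armc7 (0.95), Pfkp most like Usp3 (0.92) and Ldha most like Rpl36a-ps3 (0.90). Pfkfb3 was most like Gm11583 and Gapdh most like Kmo, each at 0.89. These genes were picked as the highest of 16624 over 12 libraries, so their r is high by selection and was not tested.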

How the data were processed

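Lung RNA, selected for poly(A) and made into 12 directional NEBNext Ultra II libraries per the labels' protocols, was analysed from the table of raw read counts per gene that the authors deposited, with no normalization per the file headers. The submitters' processing notes name mm10 as build and, as tools, featureCounts 1.6.3, HISAT2, Trimmomatic and bcl2fastq 1.8.4; options, strand setting and annotation release are not given in the sources used here. Groups were taken from the sample titles. The 9 genes and all lists were chosen with earlier results of these data known. One glycolysis gene is not reported here and was left out of its list and of the shares.

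Genes were kept by filterByExpr of edgeR 4.0.16 with a minimum total count of 15 and, by group, a minimum count of 10, and were scaled by TMM; 18556 of 49585 genes remained. A robust quasi-likelihood model with 4 group means and 8 residual degrees of freedom was fitted to all 12 libraries (R 4.3.3, limma 3.58.1), with a common biological coefficient of variation of 0.156. Tests were two-sided, and p was adjusted by Benjamini-Hochberg over all genes tested. SE was obtained from F (the size of the log2 fold change over the root of F). An exact permutation test of 3 against 3 cannot give a p below 0.1. Total counts, 16021877 to 22058620, limit the precision; replicate libraries differed by more than counting noise (chi-square per degree of freedom 9.61 to 48.1). Replicate numbers were not treated as pairs.

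Exon lengths, joined over all annotated exons of a gene, came from GENCODE M21 (99.5% of gene IDs matched, all 9 members at the same position). Similar transcripts were sought with blastn 2.17.0 (at least 90% identity over 200 bases). Promoters came from RefSeq, GRCm38.p6, matched by symbol for all 9 genes. Named are the 9 genes, up to 4 genes per list and comparison (called ones by smallest p, then by level), and the genes most like each member; others are said where they stand to be chosen after their values were seen, and marker genes serve as lists. Alternatives were RLE, library totals, no filter, a mean CPM of at least 1, TMM without immunoglobulin, haemoglobin and mitochondrial genes, DESeq2 1.42.0, limma-voom, the 2 groups only, a replicate block, leaving out each library, and pseudogene rows added. Plots used matplotlib 3.10.9 under Python 3.11.15.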

Additional observations from a re-analysis of the deposited data

How the results depend on the processing

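Of 784 values of single genes under the alternatives, 728 kept their direction and side of the threshold, 13 passed the threshold anew, 12 no longer did, and 31 changed sign, none of which passed the test. The cause of these changes was not tested. For aged against young anti-PD-1, the fit reported called 1 of the 9 genes, and 2830 of all 18556 genes tested. Scaling without immunoglobulin, haemoglobin and mitochondrial genes called 3 of the 9, and 2809 of 18556. Without a filter 2 of the 9 were called, and 2475 of 31441. With only the 2 groups 2 of the 9 were called, and 3742 of 17958. DESeq2 called 3 of the 9, and 3461 of 18556. Leaving out 1 library gave 1 to 3 of the 9, and calls over all genes ran from 1160 (without young library 3) to 3575. For aged anti-PD-1 against aged control, calls over all genes were 2025, 881 with only the 2 groups, and 607 (without aged control library 2) to 2235 when 1 library was left out, with 1 to 3 members called. For the combination against aged anti-PD-1 they were 1674, 2595 with DESeq2, 3038 with library totals (1 member called, 11.9% of calls higher against 51.7%), and 260 (without combination library 2) to 2484, with 1 to 2 members. Library totals also moved the share of calls that were higher to 71.5%, against 48.9%, for aged anti-PD-1 against aged control. For the combination against aged control they were 0, 11 without a filter, 76 with DESeq2 and 0 to 13 without 1 library, with 0 members throughout. The test of any difference called 3 to 5 of the 9 genes without 1 library, against 4. The replicate number as a block gave 2493, 1702, 1455 and 0 calls in the 4 comparisons and the same number of members called; libraries of the same number did not deviate together (median r = -0.01 over 18 pairs, -0.17 to 0.17).

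Values that changed sign are given in log2. Ldha in aged anti-PD-1 against aged control became 0.0091 with library totals, and Gapdh -0.14 with pseudogene rows. In the combination against aged anti-PD-1, Gapdh became 0.0063 with RLE, 0.0049 with the 2 groups, 0.0061 with DESeq2 and 0.23 with pseudogene rows, and Pgk1 -0.026 with library totals. In the combination against aged control, Pfkp became 0.012 with RLE, 0.016 with scaling without immunoglobulin, haemoglobin and mitochondrial genes, 0.0014 with the block, 0.015 with the 2 groups, 0.012 with DESeq2 and 0.0033 with limma-voom, and Pgk1 became 0.010, 0.015, 0.014 and 0.010 with RLE, that scaling, the 2 groups and DESeq2. Leaving out 1 library gave Slc2a1 -0.13 to 0.052 for aged against young anti-PD-1, Pfkfb3 -0.31 to 0.075 and Gapdh -0.097 to 0.091 for the combination against aged anti-PD-1, and Hk2 -0.0051 to 0.34, Pfkp -0.10 to 0.10 and Pgk1 -0.046 to 0.047 for the combination against aged control. Where an arm was left with 2 libraries, the spread was pooled over the groups.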

Other observations

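Of 16 genes tested in the branches that leave glycolysis for pentoses and glycogen, 0 were higher and 1 was lower in aged than in young anti-PD-1 lungs, Pgm2, a phosphoglucomutase (-0.37 ± 0.10 SE, edgeR adjusted p = 0.0222), where 7.16% of all genes were called lower. With aged anti-PD-1 set against aged control, 2 were lower, where 5.58% of all genes were, and none higher, and 13 had a negative log2 difference, with a median of -0.11 against -0.02 over all genes tested. The 2 lower ones were Pygm, the muscle glycogen phosphorylase, at 13.9 ± 1.00 CPM in aged anti-PD-1 lungs and 21.4 ± 2.81 CPM in aged control lungs (SD, n = 3 each; -0.62 ± 0.13, edgeR adjusted p = 0.0137), and Taldo1, the transaldolase of the pentose phosphate pathway (-0.45 ± 0.13, edgeR adjusted p = 0.0428). In combination lungs Pygm was the 1 gene called, at 20.4 ± 1.77 CPM against 13.9 ± 1.00 CPM in aged anti-PD-1 lungs (0.55 ± 0.13, edgeR adjusted p = 0.0229). Tkt, the transketolase, did not pass for aged anti-PD-1 against aged control (-0.28 ± 0.10, edgeR adjusted p = 0.0793) or for the combination against aged anti-PD-1 (0.28 ± 0.10, edgeR adjusted p = 0.0856). Skeletal muscle markers summed to 34.5 to 41.3 CPM in combination lungs, 27.8 to 29.6 CPM in aged anti-PD-1 lungs and 42.4 to 54.5 CPM in aged control lungs, and their part in the level of Pygm was not tested.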
